A study of Mus musculus with 12 samples.

Results

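Gene expression was compared between ventricular myocytes of adult mice that lack CaMKIIδ and CaMKIIγ (DKO) and myocytes of wild type mice (WT), both kept for 24 h in culture without Iso. Each difference was taken between 6 of the 12 arrays of the series, chosen by their titles: 3 DKO arrays and 3 WT arrays, each from a different mouse. The spread behind each SE and p-value was estimated from all 12 arrays. The other 6 arrays came from the same 6 mice, after 24 h with 100 nM Iso (isoprenaline, a β-adrenergic agonist). All myocytes had been isolated enzymatically by Langendorff perfusion, and both genotypes went through the same culture. The labels describe the knockout as a deficiency for both isoforms; what drives the deletion, the strain, the sex and the array type are not given in the labels. Values are log2 expression per probe set, so a difference of 1 is a 2-fold change. Of 24704 genes with a probe set, 13737 were tested, those whose probe set exceeded the array median on 3 or more of the 12 arrays.

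CaMKII is a serine/threonine kinase that is switched on by calcium-bound calmodulin. Of its genes, Camk2d is the main form in heart muscle, Camk2g is also expressed there, and Camk2a and Camk2b are known mainly from the brain. In the heart the kinase acts on calcium handling proteins such as phospholamban and the ryanodine receptor. It also phosphorylates class IIa histone deacetylases, which releases MEF2 transcription factors and the stress genes they drive.

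One of the 6 arrays stood apart from the others. The values of untreated DKO replicate 3 correlated with those of the other 11 arrays at 0.949 to 0.965, with a median of 0.956, whereas the medians of the other 11 arrays lay between 0.984 and 0.988. Its values also deviated most from the mean of its group: the root mean square deviation was 0.374 there and 0.141 to 0.276 on the remaining ones. Results without this array are therefore given for many of the genes and lists, but not for all. Among the 28 genes that passed with all arrays, described below, leaving it out moved the difference by at most 0.459. Myocyte genes were bright on every untreated array: Myh6, the main adult myosin heavy chain of the mouse ventricle, ranged from 11.86 to 12.18, and the summed level of 19 ventricular myocyte markers, on the linear scale, was 109733 to 113607 in WT and 108199 to 112691 in DKO.

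The deleted genes were read first. Camk2g was at 4.78, 5.23 and 5.41 on the WT arrays and at 4.16, 3.57 and 4.20 on the DKO arrays. Every DKO array was below every WT array; Camk2g fell by 1.17 on the log2 scale (SE 0.20, adjusted p = 0.0361, limma with Benjamini-Hochberg adjustment over all genes tested), and the difference with Iso was -1.67 (adjusted p = 0.00238). The Camk2g call was close to the threshold: it was lost when any 1 of 8 arrays was left out, with adjusted p-values of 0.0511 to 0.173 and differences of -1.35 to -1.03. These were untreated DKO replicate 1, untreated WT replicates 1, 2 and 3, Iso DKO replicates 1, 2 and 3, and Iso WT replicate 2. The call was also lost with no filter on dim probe sets and with a filter at the 25th percentile of each array. It was lost as well with only the untreated arrays fitted (adjusted p = 0.367) and against a log2 threshold of 0.5. The DKO values were not far above the array medians near 3.31.

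Camk2d, the other deleted gene, was at 7.94, 8.09 and 7.96 in WT and at 7.85, 7.91 and 7.36 in DKO. All DKO values were below all WT values, but the highest DKO array was only 0.03 below the lowest WT array. The difference was -0.29 (95% interval -0.65 to 0.07, adjusted p = 0.446) and -0.11 without DKO replicate 3, so the signal of the labelled deletion was not seen at this probe set. The labels do not say which exons the deletion removed or where on the transcript the probe set lies. A probe set outside the deleted part would check nothing, so whether the Camk2d value checks the label is not known.

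The brain isoforms did not pass. Camk2a differed by 0.03 with all arrays and by -0.20 without DKO replicate 3, so its direction depended on that array. Camk2b lay at 4.29, 4.24 and 3.80 in WT and at 3.83, 3.65 and 3.83 in DKO, a difference of -0.34 (adjusted p = 0.369). Among 14 tested genes of CaMKII and related kinases, calmodulins and CaMKII inhibitors, Camk2g alone passed, and the median difference was -0.12 against -0.01 over all 13737 genes.

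Across all genes, 28 of 13737 passed at an adjusted p under 0.05, which is 0.204%: 14 rose in DKO (0.102%) and 14 fell (0.102%). At an unadjusted p under 0.05 there were 1897 genes, or 13.8%. The 28 differed by 0.71 to 4.14 in size, beside a median size of 0.163 and a median SE of 0.166 over all genes. In all 28 the 3 DKO arrays and the 3 WT arrays did not overlap, as was so for 17% of the genes tested. Genes apart in this way with a difference of at least 1 numbered 87 (0.633%): 50 were higher in DKO (0.364%) and 37 lower (0.269%). Without DKO replicate 3 the count was 46 (0.335%), of which 23 rose (0.167%) and 23 fell (0.167%), and 27 of the 28 were among them. With the spread estimated from the 6 untreated arrays alone, 2 of the 28 passed, Rps3a2 and Esd; the other 22 that have a proper gene name had adjusted p-values of 0.0624 to 0.367 in that fit, with the same differences. Of the 28, 24 have a proper gene name, 13 that rose and 11 that fell, and these are described below by what they do; the other 4 are predicted genes, 1 that rose and 3 that fell.

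**Figure D1:**
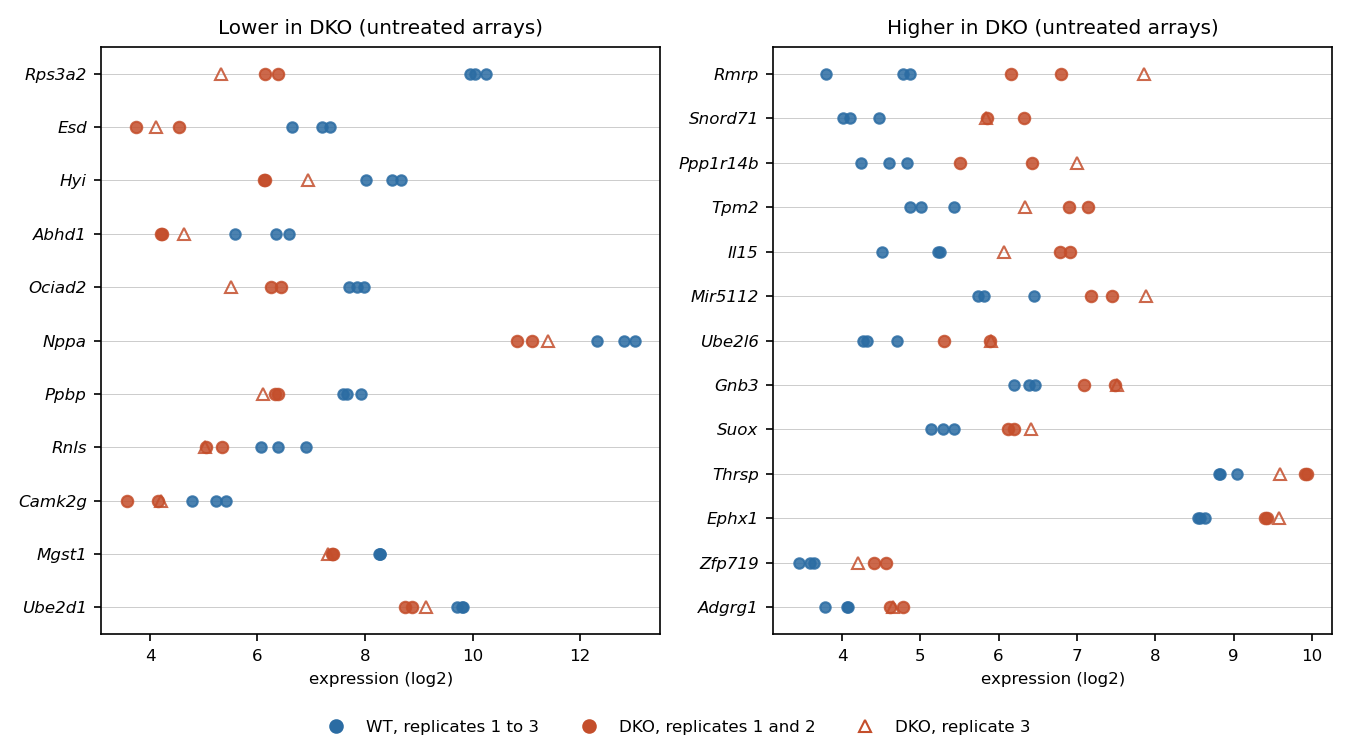
Expression (log2) of the 24 named genes that passed, on the 6 arrays without Iso; each point is 1 array, blue for WT and red for DKO, with DKO replicate 3 as an open triangle. In every gene shown the DKO points and the WT points do not overlap, with the widest gap for Rps3a2, at 5.32 to 6.39 in DKO against 9.96 to 10.25 in WT.

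The cardiac hormone gene Nppa was lower in DKO myocytes, and the muscle filament gene Tpm2 was higher. Nppa encodes atrial natriuretic peptide, which working ventricular muscle turns on again under load. Its values were 13.02, 12.82 and 12.32 in WT and 10.84, 11.11 and 11.39 in DKO. It was among the brightest genes in both, and the highest DKO array lay 0.92 below the lowest WT array. Nppa fell by 1.61 (SE 0.21, adjusted p = 0.00733), a 3.04-fold lower level, and it fell by 1.75 without DKO replicate 3. The call was lost without untreated WT replicate 1 (-1.46, adjusted p = 0.0555) and without untreated WT replicate 2 (-1.56, adjusted p = 0.0505). In arrays of a cell preparation, fewer cells of a type and less RNA per cell cannot be told apart.

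Nppb, the gene of the related B-type peptide, showed no such difference. It was at 12.97 to 13.10 in WT and at 12.98, 12.88 and 13.10 in DKO, so the groups overlapped, with a difference of -0.04 (95% interval -0.29 to 0.21). These values lay near the top of the scale, as the highest value on any array was 13.83. How well differences are resolved there was not tested, for Nppb or for other bright genes such as Nppa and Acta1. Of the other genes that mark ventricular stress, Acta1, the skeletal α-actin, differed by 0.13 (adjusted p = 0.662) and Myh6 by 0.12 (adjusted p = 0.708). Myh7, the slow myosin heavy chain, was dim, at 4.31, 4.60 and 3.97 in WT and 3.38, 3.51 and 3.44 in DKO; the groups did not overlap, but the difference of -0.85 did not pass (adjusted p = 0.125). Ankrd1, a stretch-responsive protein of the sarcomere, differed by -0.91 and did not pass either (adjusted p = 0.10). Of 26 tested genes of the stretch and hypertrophy response, Nppa alone passed; the median of the list was -0.18, and -0.09 without DKO replicate 3.

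Tpm2 encodes β-tropomyosin, a coiled protein that lies along the thin filament and is a minor form in the adult mouse heart. It was at 5.01, 4.87 and 5.43 in WT and at 6.90, 7.14 and 6.34 in DKO. The lowest DKO array, replicate 3, was 0.91 above the highest WT array. Tpm2 rose by 1.69 (SE 0.22, adjusted p = 0.00723), a 3.22-fold higher level, and by 1.92 without DKO replicate 3. Leaving out untreated WT replicate 1 or 2 took its adjusted p to 0.0555 and 0.0501. Tpm1, which encodes the α-tropomyosin that dominates in the heart, differed by 0.48 (adjusted p = 0.204). Tpm2 was the one passing member of 41 tested sarcomere genes, whose median was -0.11, or -0.05 without DKO replicate 3, with 13 genes above 0 and 28 below. Among all genes tested 48.1% were above 0.

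The promoters of these 2 genes are shown because they are the cardiac and muscle genes that passed in opposite directions; each sequence is the 250 bases before the RefSeq transcription start in build GRCm38.p6, 5′ to 3′ on the strand of the gene. The capitals mark the letters TATAAA, which were searched for as the TATA box motif.
Nppa, chr4:148000472-148000721, plus strand: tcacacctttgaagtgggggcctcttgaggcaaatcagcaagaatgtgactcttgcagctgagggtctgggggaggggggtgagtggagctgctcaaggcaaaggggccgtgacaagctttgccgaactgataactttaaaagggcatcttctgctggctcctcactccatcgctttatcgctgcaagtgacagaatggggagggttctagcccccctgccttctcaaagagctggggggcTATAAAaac
Tpm2, chr4:43523555-43523804, minus strand: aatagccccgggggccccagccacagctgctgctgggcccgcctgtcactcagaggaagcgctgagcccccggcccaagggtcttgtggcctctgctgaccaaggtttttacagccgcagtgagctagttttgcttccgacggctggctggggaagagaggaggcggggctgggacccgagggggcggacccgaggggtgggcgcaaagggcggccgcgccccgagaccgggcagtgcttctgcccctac
In the Nppa promoter TATAAA lay at bases -9 to -4 from the start, and the Tpm2 window held none of the 7 motifs searched. Whether TATAAA acts as a TATA box so close to the listed start was not tested. The search covered both strands and included TATAAA, found in 12.4% of all 32851 RefSeq promoters of this length, and the CArG box and MEF2 site, both of 10 letters, found in 1.47% and 2.92%. The other motifs were the cAMP response element core TGACG (17.8%), the antioxidant response element core TGACNNNGC (10.2%), the GATA site AGATAA (9.99%) and the interferon-stimulated response element, of 10 letters (2.98%). Of the 28 passing genes, 16 had a promoter in the table, and 5 of these held TATAAA, 2 TGACG, 1 TGACNNNGC and 1 a CArG box, while the MEF2, GATA and interferon motifs were in none. A match is a run of letters and not a measured binding site.

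Of the 11 named genes that fell, 5 are named for enzymes of small-molecule chemistry and detoxification: Esd, Hyi, Abhd1, Rnls and Mgst1. They were grouped with their values in view, and the share of such enzymes among all tested genes was not counted. Ephx1 and Suox, also enzyme genes, passed in the other direction (0.88 and 0.96). Esd encodes esterase D, also called S-formylglutathione hydrolase, which completes the removal of formaldehyde. It was at 7.34, 7.21 and 6.64 in WT and 3.74, 4.55 and 4.11 in DKO. The WT arrays were well above the array medians near 3.31, and DKO replicate 1 was close to them. Esd fell by 2.93 (SE 0.25, adjusted p = 0.000218), 7.63-fold, and by 2.92 without DKO replicate 3.

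Hyi is named for hydroxypyruvate isomerase, Abhd1 for an α/β hydrolase fold and Rnls for renalase, a flavoprotein oxidase. Hyi was at 8.66, 8.50 and 8.02 in WT and 6.11, 6.13 and 6.94 in DKO, a fall of 2.00 (SE 0.26, adjusted p = 0.00723). Abhd1 was at 5.58, 6.34 and 6.58 in WT and 4.23, 4.20 and 4.63 in DKO, a fall of 1.81 (SE 0.24, adjusted p = 0.00723). Rnls was at 6.90, 6.38 and 6.06 in WT and 5.35, 5.04 and 5.03 in DKO, a fall of 1.31 (SE 0.20, adjusted p = 0.0187). All 3 genes were lower on every DKO array than on every WT array. The RefSeq gene table for GRCm38.p6 lists these 3 genes as transcribed pseudogenes in the reference strain. Of 120 tested genes of that type they were the ones that passed, which is 2.5% beside 0.204% of all genes; the class was singled out after these values were seen, and its median difference was -0.01. Without untreated WT replicate 2 the adjusted p was 0.0501 for Hyi, 0.0501 for Abhd1 and 0.0718 for Rnls, and without untreated WT replicate 1 it was 0.0555 for Hyi and 0.0575 for Rnls.

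Mgst1, a microsomal glutathione S-transferase, had the tightest replicates among the genes that fell. It was at 8.29, 8.28 and 8.27 in WT and at 7.40, 7.39 and 7.32 in DKO. The spread within a genotype was at most 0.0447 (SD), beside a fall of 0.91 (SE 0.11, adjusted p = 0.00609). Ociad2, a mitochondrial protein with an OCIA domain, was at 7.98, 7.84 and 7.70 in WT and 6.25, 6.45 and 5.51 in DKO. It fell by 1.77 (SE 0.20, adjusted p = 0.00513), and by 1.49 without DKO replicate 3, its lowest array. Mgst1 and Ociad2 kept their calls whichever 1 of the 12 arrays was left out. Both lost them with the 6 untreated arrays fitted alone (adjusted p = 0.133 for each) and against a log2 threshold of 0.5 (adjusted p = 0.902 for Mgst1 and 0.080 for Ociad2).

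One of the 2 RefSeq promoters of Mgst1 held the antioxidant response element core on the reverse strand, at bases -56 to -48, which is shown in capitals because Mgst1 was the one passing gene with it.
Mgst1, chr6:138140277-138140526, plus strand: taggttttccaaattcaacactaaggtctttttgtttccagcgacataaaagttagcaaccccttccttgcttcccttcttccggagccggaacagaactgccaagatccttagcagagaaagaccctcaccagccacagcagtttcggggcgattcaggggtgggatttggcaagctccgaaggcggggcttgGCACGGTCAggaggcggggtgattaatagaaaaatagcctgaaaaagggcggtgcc
The other genes of NRF2 and antioxidant defence did not pass: 0 of 35 tested in either direction, with a median of 0.08 that became -0.03 without DKO replicate 3, and 9 at an unadjusted p under 0.05. Of the 35 genes, 21 were above 0 and 14 below, and 17 were above 0 without DKO replicate 3. Beside these, 48.1% of all genes were above 0, and 13.8% had an unadjusted p under 0.05. From the lower side, the transcription factor gene Nfe2l2 itself differed by -0.51 (adjusted p = 0.322) and Txnrd1, a thioredoxin reductase, by -0.52 (adjusted p = 0.225).

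Metabolic genes that rose were Ephx1, Suox and Thrsp. Ephx1 encodes the microsomal epoxide hydrolase, which opens reactive epoxides. It was at 8.64, 8.55 and 8.57 in WT and at 9.39, 9.42 and 9.58 in DKO, a rise of 0.88 (SE 0.11, adjusted p = 0.00723). Suox, the mitochondrial sulfite oxidase, was at 5.14, 5.43 and 5.29 in WT and 6.13, 6.19 and 6.41 in DKO, a rise of 0.96 (SE 0.13, adjusted p = 0.0077). In both genes DKO replicate 3 was the highest array, and the rise without it was 0.82 in Ephx1 and 0.88 in Suox. Thrsp, a small nuclear protein linked to fatty acid synthesis, was at 9.05, 8.82 and 8.81 in WT and 9.91, 9.93 and 9.59 in DKO, a rise of 0.92 (SE 0.14, adjusted p = 0.020). Among the 41 tested genes of fatty acid oxidation and PPAR targets none passed (7 at an unadjusted p under 0.05), and among 79 of oxidative phosphorylation none passed (16 at an unadjusted p under 0.05). The oxidative phosphorylation genes had a median of 0.09, with 55 of 79 above 0 beside 48.1% of all genes. The largest positive difference among them was that of Ndufa11, a complex I subunit, at 0.75 (adjusted p = 0.106), and the largest negative one that of Cox7b, a complex IV subunit, at -0.66 (adjusted p = 0.202).

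Rps3a2, a pseudogene copy of the ribosomal protein gene Rps3a1, showed the largest difference of all genes that passed. It was at 9.96, 10.25 and 10.04 in WT and at 6.13, 6.39 and 5.32 in DKO. The gap between the groups was 3.57, and the fall was 4.14 (SE 0.31, adjusted p = 0.000118), 17.6-fold. Without DKO replicate 3, its lowest untreated array, the difference was -3.82. Rps3a1 has its own probe set, which was near the array median throughout, at 3.18 to 4.30 in WT and 3.68 to 3.85 in DKO without Iso. The 2 genes are close copies, so which of their transcripts the Rps3a2 probe set reads is uncertain. Of 51 tested cytosolic ribosomal protein genes Rps3a2 was the one that passed, and the median of the list was 0.02.

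Gnb3, Adgrg1 and Ppp1r14b, genes of receptor and phosphatase signalling, also rose. This grouping was made with the values in view, and the share of such genes among all tested genes was not counted. Gnb3, a β subunit of heterotrimeric G proteins, was at 6.39, 6.46 and 6.19 in WT and 7.09, 7.48 and 7.50 in DKO, a rise of 1.01 (SE 0.15, adjusted p = 0.018). Adgrg1, an adhesion G protein-coupled receptor, was at 3.79, 4.07 and 4.06 in WT and 4.78, 4.61 and 4.65 in DKO, a rise of 0.71 (SE 0.12, adjusted p = 0.0435). Both sets of 3 were apart, by 0.63 in Gnb3 and by 0.54 in Adgrg1. Ppp1r14b, an inhibitor of protein phosphatase 1, was at 4.24, 4.60 and 4.83 in WT and 6.42, 5.51 and 7.01 in DKO, where replicate 3 was the highest. It rose by 1.76 (SE 0.28, adjusted p = 0.0244) and by 1.41 without that array. Zfp719, a zinc finger protein, was dim, at 3.45, 3.64 and 3.59 in WT and 4.41, 4.56 and 4.21 in DKO, and was the gene nearest the threshold (rise of 0.83, adjusted p = 0.0481). Of 33 tested genes of adrenergic signalling and phosphodiesterases none passed (3 at an unadjusted p under 0.05), and their median was 0.01.

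Il15 rose and Ppbp fell among the secreted immune factors. Il15, the cytokine that sustains natural killer cells and memory T cells, was at 5.25, 4.51 and 5.22 in WT and at 6.79, 6.91 and 6.07 in DKO. The lowest DKO array was 0.81 above the highest WT array. It rose by 1.59 (SE 0.25, adjusted p = 0.020), a 3.01-fold higher level, and by 1.85 without DKO replicate 3; the call was lost without untreated DKO replicate 1 (adjusted p = 0.0837), untreated WT replicate 1 (0.0575) or untreated WT replicate 2 (0.1000). Ppbp, the platelet basic protein, a chemokine of platelets and megakaryocytes, was at 7.66, 7.93 and 7.59 in WT and 6.32, 6.38 and 6.11 in DKO. It fell by 1.46 (SE 0.24, adjusted p = 0.0312), and was the one gene that lost its call without DKO replicate 3 (-1.38, adjusted p = 0.0579).

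Il15 was the one passing member of 41 tested inflammatory cytokines and NF-κB targets, whose median was 0.01 with 21 genes above 0 and 20 below. Ccl3, a macrophage chemokine, differed by 1.78 (adjusted p = 0.0776), Il6 by -0.66 (adjusted p = 0.195) and Ccl2 by -0.56 (adjusted p = 0.411), so the members that did not pass lay on both sides of 0. The macrophage markers stood beside these as follows: 0 of 24 tested passed (6 at an unadjusted p under 0.05), 16 were below 0, and their summed linear level was 665 to 804 in WT and 615 to 682 in DKO. Among all genes 13.8% had an unadjusted p under 0.05, and 48.1% were above 0. Aif1, Ptprc and Ccr2 were too dim to be tested. The part of these cells in the immune genes was not tested.

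The ubiquitin system contributed 1 conjugating enzyme in each direction. Ube2l6, the enzyme that attaches the ubiquitin-like protein ISG15, was at 4.26, 4.32 and 4.71 in WT and 5.89, 5.30 and 5.90 in DKO, and rose by 1.26 (SE 0.19, adjusted p = 0.0188). It was the one passing member of 40 tested interferon-stimulated genes, whose median was -0.01; Isg15 itself differed by -0.40 (adjusted p = 0.305). Ube2d1, a ubiquitin-conjugating enzyme with many partner ligases, was at 9.82, 9.70 and 9.79 in WT and 8.87, 8.74 and 9.13 in DKO, and fell by 0.86 (SE 0.13, adjusted p = 0.0187).

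Of the genes for small non-coding RNAs, 3 rose. Rmrp, the RNA of the ribonuclease MRP that processes ribosomal RNA, was at 3.80, 4.78 and 4.87 in WT and 6.80, 6.15 and 7.85 in DKO. It rose by 2.45 (SE 0.38, adjusted p = 0.020) and by 1.99 without DKO replicate 3, its highest array. Snord71, a small nucleolar RNA, was at 4.47, 4.10 and 4.01 in WT and 6.33, 5.85 and 5.84 in DKO, and rose by 1.81 (SE 0.23, adjusted p = 0.0072). The probe set of the microRNA gene Mir5112 was at 5.73, 5.81 and 6.46 in WT and 7.45, 7.18 and 7.88 in DKO, and rose by 1.50 (SE 0.23, adjusted p = 0.0195). The RNA was labelled as cRNA of total RNA, so whether such probe sets read the mature RNA, a precursor or a host transcript is not stated in the labels. The class of 58 tested small nucleolar RNA genes had a median of 0.62, which was 0.26 without DKO replicate 3, and 1 of them passed (1.72%). The 141 microRNA genes had a median of 0.07 and 1 passed (0.709%).

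The position of the passing genes relative to the deleted ones was also recorded. The chromosome that carries Camk2g holds 518 of the tested genes (3.77%) and 4 of the 28 that passed, all of which fell: Camk2g, Esd, Rps3a2 and a predicted gene. Chromosomes without a deleted gene held similar groups. On chromosome 5 lay Abhd1, Ociad2, Ppbp and a predicted gene, which also all fell. On chromosome 4 lay Rmrp and Tpm2, which rose, and Hyi and Nppa, which fell. The share of tested genes on these chromosomes was not counted. Esd and Rps3a2 had 29 tested genes between them, none of which passed, and lay 372 and 402 tested genes from Camk2g. Of the 50 nearest tested genes around Camk2g, 25 on each side, none passed (10 at an unadjusted p under 0.05), and their median was -0.07. The chromosome of Camk2d holds 612 of the tested genes (4.46%) and none of the 28, and 0 of the 50 genes around Camk2d passed (7 at an unadjusted p under 0.05). Without DKO replicate 3, 2 of those 50 passed: Dnttip2, a nucleolar protein that fell (-0.83), and a predicted gene that rose (1.72). Rmrp and Tpm2, which both rose, had 1 tested gene between them, Ccdc107, which differed by 0.69 (adjusted p = 0.25).

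The same genotypes with Iso were read on the other 6 arrays. These came from the same 6 mice and were in the same fit, so the estimate of spread behind the p-values was shared with the untreated comparison. There 42 genes passed (0.306%). They held 17 of the 28 genes in the same direction: 12 of the 14 that had fallen and 5 of the 14 that had risen. In 20 of the 28 the DKO and WT arrays with Iso were apart in the same direction, where 17.6% of all genes were apart in either direction. The genes that rose under both conditions were Tpm2, Il15, Thrsp, Gnb3 and Ephx1. Tpm2 was at 4.83, 4.42 and 4.44 in WT and 7.13, 6.71 and 6.66 in DKO with Iso, a rise of 2.27 (SE 0.22, adjusted p = 0.00048). Il15 was at 4.79, 4.62 and 4.25 in WT and 7.01, 6.68 and 7.004 in DKO, a rise of 2.35 (SE 0.25, adjusted p = 0.000892). Both differences were larger than without Iso, but the change itself did not pass (adjusted p = 0.531 for Tpm2 and 0.493 for Il15).

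All named genes that fell without Iso also fell with Iso, apart from Ube2d1. Nppa was at 12.03, 12.39 and 11.71 in WT and 10.92, 10.73 and 10.65 in DKO with Iso, again without overlap, a fall of 1.28 (SE 0.21, adjusted p = 0.0262). Esd fell by 2.38 (adjusted p = 0.000777), Rps3a2 by 4.41 (adjusted p = 5.6e-05) and Abhd1 by 2.82 (adjusted p = 0.000159). Ube2d1 was at 9.55, 9.42 and 9.39 in WT and 9.59, 9.81 and 9.56 in DKO with Iso, a difference of 0.20 (adjusted p = 0.797), so its direction was not that seen without Iso. The test of the change between conditions did not pass for it (-1.06, adjusted p = 0.102).

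The named rises that did not pass with Iso were Rmrp, Snord71, Ppp1r14b, Ube2l6, Suox, Zfp719 and Adgrg1. Rmrp was at 6.54, 5.70 and 6.04 in WT and 5.11, 5.53 and 5.33 in DKO with Iso. The WT values were there above the DKO values (difference -0.77, adjusted p = 0.682), while the change from the untreated difference, 3.22, did not pass (adjusted p = 0.102). Ppp1r14b had a difference of 0.40 with Iso, Adgrg1 of 0.23 and Suox of 0.17, all on the same side as without Iso. Snord71 (-0.29), Ube2l6 (-0.29) and Zfp719 (-0.30) were on the other side.

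Mir5112 alone among the 28 had a genotype difference that changed with Iso by the test of the change itself. With Iso its probe set was at 10.26, 10.08 and 10.56 in WT and at 6.96, 7.39 and 7.50 in DKO. The DKO arrays were near their untreated level of 7.18 to 7.88, and the WT arrays, at 5.73 to 6.46 without Iso, were above all others with it. The difference was 1.50 without Iso and -3.02 with Iso (SE 0.23, adjusted p = 7.79e-05), and these differed by 4.52 (SE 0.33, adjusted p = 7.87e-05). Over all genes, 2 passed that test (0.0146%).

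**Figure D2:**
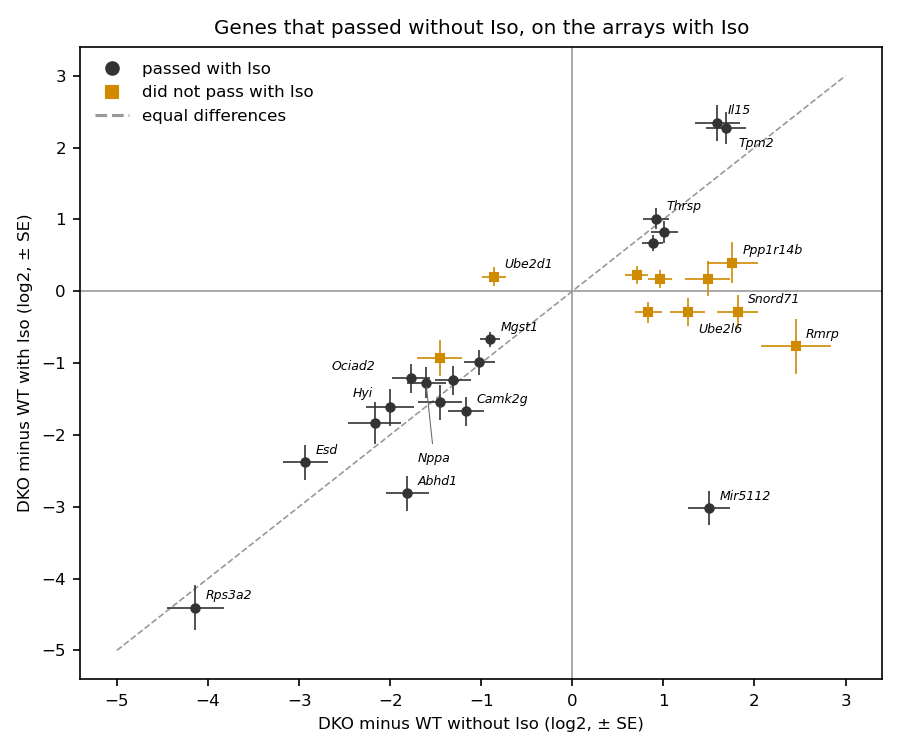
Log2 difference DKO minus WT without Iso (horizontal) against that with Iso (vertical) for the 28 genes that passed without Iso, with standard errors as bars; black points passed with Iso, orange squares did not, and the dashed line marks equal differences. Most genes that fell lie near the line, among them Rps3a2 at -4.14 and -4.41, and Mir5112 lies far from it at 1.50 and -3.02.

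Leaving out DKO replicate 3 added 19 genes to those that passed, 9 that rose and 10 that fell; the naming rule covers none of them, and the ones below were picked with their values in view. Myot, which encodes the Z-disc protein myotilin, was at 8.40, 8.20 and 8.42 in WT and at 9.59, 9.71 and 8.72 in DKO. It rose by 1.31 without replicate 3 (adjusted p = 0.000787) and by 1.36 with Iso (adjusted p = 0.0198), whereas with all arrays the difference of 1.00 did not pass (adjusted p = 0.0952). Carnmt1, a methyltransferase that makes anserine from carnosine, was at 3.31, 3.66 and 3.63 in WT and 5.43, 4.60 and 4.41 in DKO, a rise of 1.49 without replicate 3 (adjusted p = 0.0285). Coq9, needed for coenzyme Q synthesis, was at 10.72, 10.68 and 10.48 in WT and 11.47, 11.62 and 11.06 in DKO, a rise of 0.91 without replicate 3 (adjusted p = 0.0209). In these 3 genes replicate 3 was the DKO array nearest to WT.

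Lcn2, the iron-carrier binding protein lipocalin 2, fell by 1.07 without replicate 3 (adjusted p = 0.0209). It was at 7.61, 7.81 and 7.54 in WT and 6.70, 6.48 and 5.29 in DKO, and here replicate 3 was the lowest array (all arrays -1.50, adjusted p = 0.0776). Carm1, an arginine methyltransferase, was at 8.43, 8.37 and 8.18 in WT and 7.17, 7.27 and 8.62 in DKO. Replicate 3 was above all WT arrays and the other DKO arrays were below them, so the fall of 1.11 without it (adjusted p = 0.00691) stood beside -0.64 with it (adjusted p = 0.364). The membrane repair gene Dysf (-0.82 without replicate 3, adjusted p = 0.0194), the lysosomal glucosidase gene Gaa (-0.72, adjusted p = 0.0385) and the ubiquitin ligase gene Cop1 (-1.58, adjusted p = 0.0496) fell likewise without that array and overlapped WT with it.

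The count of passing genes also depended on other single arrays. It was 180 without untreated DKO replicate 2, 18 without untreated DKO replicate 1, and 7, 9 and 20 without untreated WT replicates 1, 2 and 3. Leaving out an array with Iso gave 20 to 33. Of the 24 named genes, 24 kept their call without untreated DKO replicate 2, 23 without replicate 3, 13 without replicate 1, and 7, 6 and 16 without untreated WT replicates 1, 2 and 3. The genes that kept it whichever array was left out were Rps3a2, Esd, Ociad2, Mgst1 and Snord71. The other 19 lost it without at least 1 array, at adjusted p-values of 0.0501 to 0.232. Suox lost it without untreated WT replicate 1 (0.88, adjusted p = 0.0575) and Ephx1 without untreated WT replicate 2 (0.86, adjusted p = 0.0501). Gnb3 lost it without any 1 of the 3 untreated WT arrays (adjusted p up to 0.0762), and Rmrp, Ube2l6 and Mir5112 without untreated DKO replicate 1 or untreated WT replicate 1 or 2 (up to 0.124 each). Thrsp and Ube2d1 lost it without untreated DKO replicate 1 or any untreated WT array (up to 0.124 each), and Ppp1r14b also without Iso DKO replicate 1 (up to 0.154). Zfp719 lost it without 8 of the 12 arrays and Adgrg1 without 9, untreated DKO replicates 2 and 3 not among them, while Ppbp lost it without 7. None of the 24 changed direction in any of these fits.

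**Figure D3:**
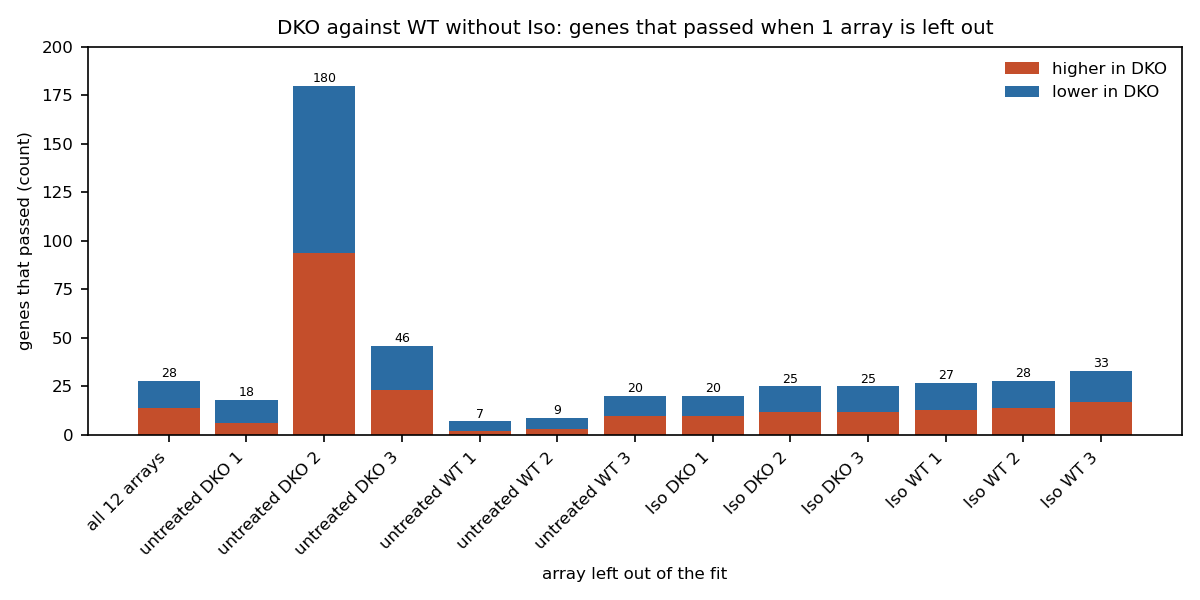
Number of genes that passed in the comparison of DKO with WT without Iso, with all 12 arrays and with each array left out in turn; red counts genes higher in DKO and blue genes lower in DKO. The count was 28 with all arrays and ran from 7 without untreated WT replicate 1 to 180 without untreated DKO replicate 2.

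The targets through which CaMKII is known to act in myocytes were then read as groups. The arrays give the RNA levels of these genes, and the phosphorylation of their proteins was not measured. No gene passed among 31 tested genes of calcium handling, and their median was -0.02. An unadjusted p under 0.05 was reached by 6 of them, beside 13.8% of all genes. Atp2a2, the calcium pump of the sarcoplasmic reticulum, was at 12.80, 12.80 and 12.80 in WT and 12.71, 12.71 and 12.09 in DKO. The WT values were equal as deposited (SD 0) and lay near the top of the scale, where the resolution of differences was not tested. It differed by -0.30 with all arrays and by -0.09 without DKO replicate 3, its lowest array. Pln, phospholamban, the inhibitor of that pump, differed by 0.07 (95% interval -0.25 to 0.38) and Ryr2, the calcium release channel, by 0.09 (-0.21 to 0.39). Slc8a1, the sodium-calcium exchanger, was at 7.34, 7.62 and 7.53 in WT and 7.82, 8.02 and 6.45 in DKO; its difference was -0.07 with all arrays and 0.42 without replicate 3. Cacna1c, the pore of the L-type calcium channel, differed by 0.07 with all arrays and -0.04 without replicate 3. Itpr2, an inositol trisphosphate receptor, had the largest positive difference of the list at 0.91 and did not pass (adjusted p = 0.0949).

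No gene passed among 23 tested genes of MEF2 factors, class IIa histone deacetylases and cardiac transcription factors (3 at an unadjusted p under 0.05). Their median was -0.22, beside -0.01 over all genes, and -0.21 without DKO replicate 3; with Iso it was -0.02. Mef2a was at 9.47, 9.51 and 9.48 in WT and 8.98, 9.40 and 8.79 in DKO, a difference of -0.43 (adjusted p = 0.294). The DKO values were all below the WT values, as they also were for Mef2c (-0.30, adjusted p = 0.293). Mef2d was at 7.30, 7.42 and 7.88 in WT and 7.11, 6.68 and 7.88 in DKO. It overlapped between the genotypes through DKO replicate 3 alone (-0.31, adjusted p = 0.616). Without that array the difference was -0.64 and did not pass either (adjusted p = 0.204). The deacetylase genes Hdac4 (-0.17, adjusted p = 0.519) and Hdac5 (0.10, adjusted p = 0.751) did not pass.

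Among 39 tested immediate early and CREB-responsive genes none passed (10 at an unadjusted p under 0.05), and the median moved from 0.02 to -0.06 without DKO replicate 3. Nr4a1, an orphan nuclear receptor induced within minutes of stimulation, was at 7.82, 7.72 and 7.54 in WT and 7.10, 6.97 and 7.39 in DKO; the groups were apart, and the difference of -0.54 did not pass (adjusted p = 0.192). Its relative Nr4a3 differed by -0.92 (adjusted p = 0.128). Fos differed by 0.02 with all arrays and by -0.19 without replicate 3, which was its highest DKO array.

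**Figure D4:**
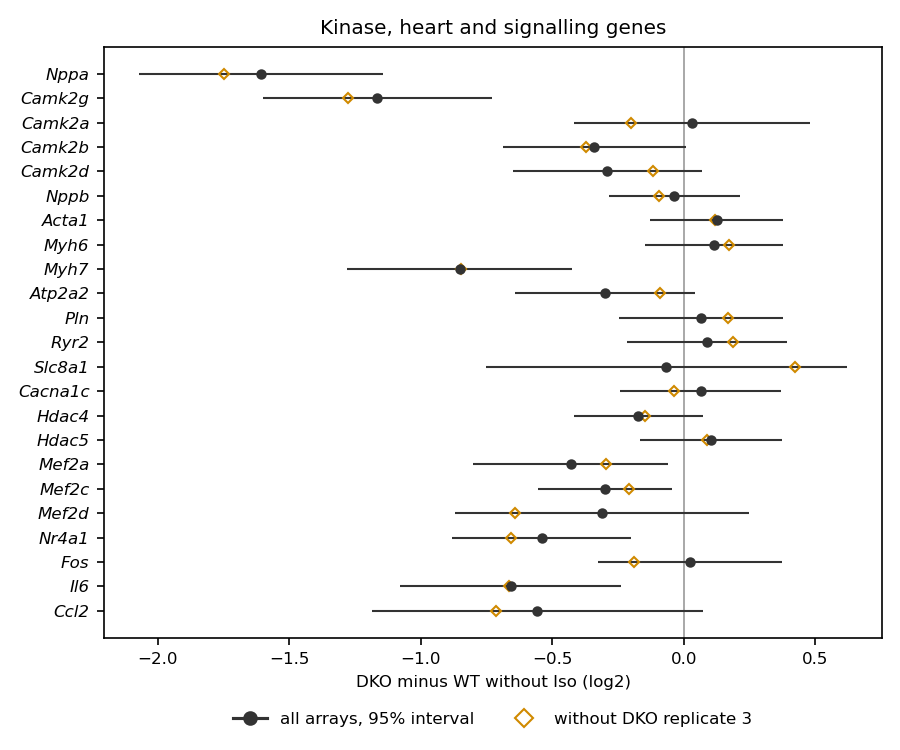
Log2 difference DKO minus WT without Iso for 23 kinase, heart and signalling genes given whatever their result; black points and bars are the difference and its 95% interval with all arrays, and orange diamonds the difference without DKO replicate 3. Nppa (-1.61) and Camk2g (-1.17) passed, the other genes did not, and the diamond lies on the other side of 0 for Camk2a, Slc8a1, Cacna1c and Fos.

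Markers of other cells that such a preparation can hold were read beside these groups. Of 25 tested endothelial markers none passed, but 10 had an unadjusted p under 0.05, beside 13.8% of all genes. Of the 25, 20 were above 0, beside 48.1% of all genes. The median of the list was 0.34, or 0.15 without DKO replicate 3. The summed linear level of the list was 4432 to 5377 in WT and 4327 to 4942 in DKO, so the brightest markers did not follow the median. The largest differences were those of Aqp1, a water channel (0.86, adjusted p = 0.223), and Eng, endoglin (0.82, adjusted p = 0.252), while Cldn5, a tight junction protein, was at -0.48 (adjusted p = 0.435). Fibroblast and matrix genes (35 tested, median 0.04, summed level 3229 to 3750 in WT and 3474 to 3622 in DKO) and smooth muscle and pericyte markers (15 tested, median 0.07) had no gene that passed, with 4 and 2 at an unadjusted p under 0.05. Most other leukocyte markers were too dim to be tested (16 of 25), as was the globin gene Hbb-bs. The part of these cells in the genotype differences was not tested.

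Atrial genes were read because Nppa is one of them. Nppa was the one of 10 tested that passed; Sln, sarcolipin, differed by -0.50 (adjusted p = 0.875), Myl7, the atrial light chain, by -0.24 (adjusted p = 0.915) and Myl4 by 0.42 (adjusted p = 0.399). The ventricular myocyte markers had a median of 0.00 over 19 genes, with none that passed and 3 at an unadjusted p under 0.05. Their median was 0.02 without DKO replicate 3.

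**Figure D5:**
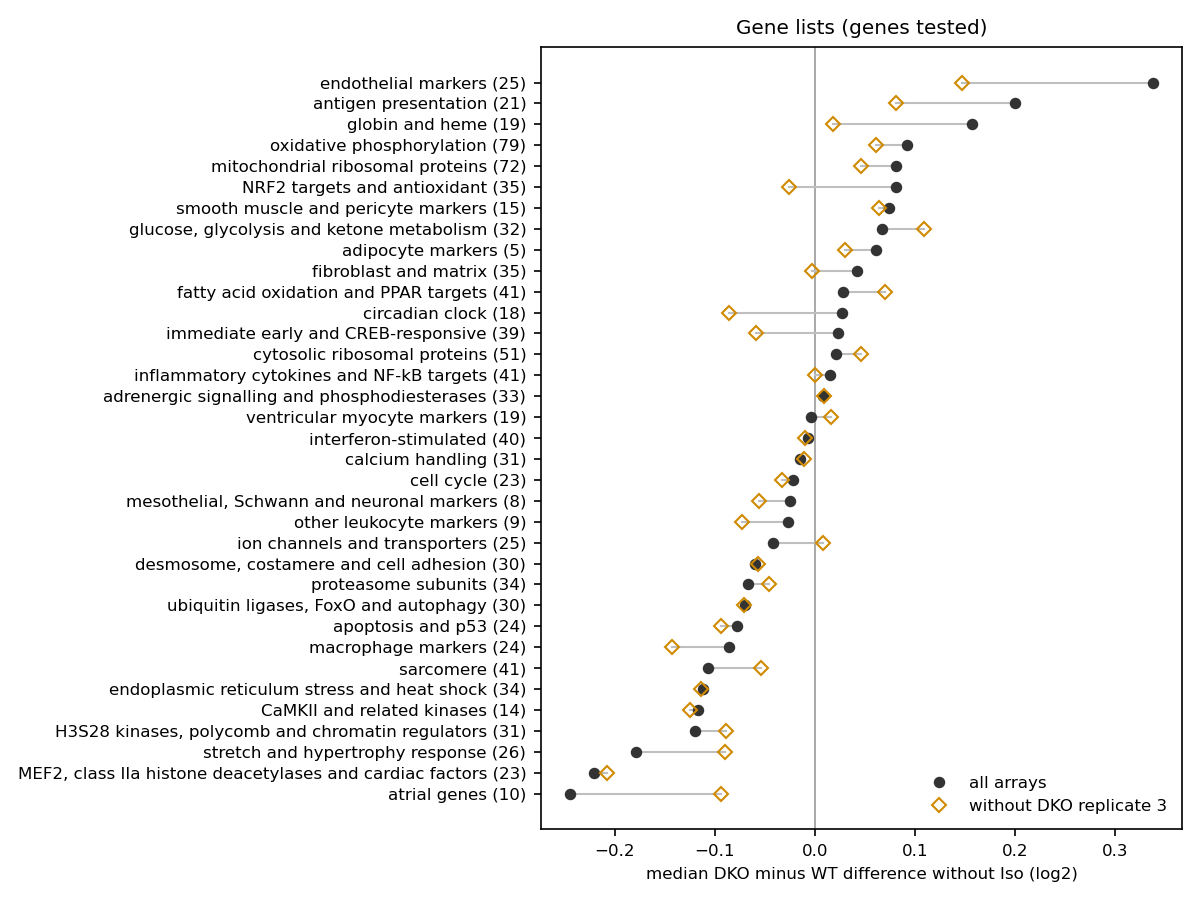
Median log2 difference DKO minus WT without Iso for 35 gene lists, with the number of tested genes in brackets; black points are medians with all arrays and orange diamonds those without DKO replicate 3. The medians run from -0.24 for the atrial genes to 0.34 for the endothelial markers, and both of these lie nearer to 0 without replicate 3, at -0.09 and 0.15.

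The remaining lists gave few calls. Of 34 tested genes of endoplasmic reticulum stress and heat shock none passed with all arrays (6 at an unadjusted p under 0.05), and their median was -0.11; Sdf2l1, an endoplasmic reticulum chaperone component, fell by 1.02 without DKO replicate 3 (adjusted p = 0.0209). The 34 proteasome genes (median -0.07) and the 72 mitochondrial ribosomal protein genes (median 0.08) had no gene that passed, with 8 and 10 at an unadjusted p under 0.05. The 31 genes of H3S28 kinases, polycomb and chromatin regulators, chosen because the study asked about histone H3 serine 28 phosphorylation, had no gene that passed (5 at an unadjusted p under 0.05) and a median of -0.12.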

How the data were processed

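The deposited values are log2 expression per probe set; they were made by the authors with RMA from Affymetrix arrays, per the submitters' processing notes, which name no version. They were used as deposited. The table held 25428 probe sets; 24705 carried 1 gene symbol, giving 24704 genes (for a symbol with 2 probe sets, the brighter was used), and 723 without a symbol were set aside. The labels name 6 mice, 1 for each untreated array, so the arrays of a group are biological replicates.

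A gene was tested where its probe set exceeded the median of the named probe sets on 3 or more of the 12 arrays. Group means of all 4 groups were fitted in limma 3.58.1 (R 4.3.3) (8 residual degrees of freedom) with moderated variances (eBayes). The Benjamini-Hochberg adjustment ran over these 13737 genes, and an adjusted p under 0.05 counted as passed. The script was tested on simulated data. "Without DKO replicate 3" is the same fit on the other arrays, with the same genes.

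Named were the 15 largest rises and falls that passed, with all arrays, the 10 largest of each that also passed without DKO replicate 3, up to 4 passing members of each of 36 gene lists, and a set of heart, kinase and signalling genes regardless of outcome; some of these, Adrb1 and Hba-a1 among them, were not analysed here, and Xist and Hbb-bs were too dim to be tested. Predicted genes were counted and not named. Other list members that did not pass, Ankrd1, Ccl3, Itpr2, Nfe2l2 and Aqp1 among them, fall outside this rule. They were named with their values known. The members and lists were chosen with earlier results of these data known. Lists are described by counts and medians, without a test. Beside the list counts, 13.8% of all genes tested had an unadjusted p under 0.05, and 48.1% were above 0. Summed levels of markers add 2 to the power of each value. Promoters and gene types came from RefSeq tables of build GRCm38.p6. The precision is limited by the 3 arrays per group. Alternatives were other filters, normalizations on top of the deposited scale, array weights, blocks, a fold threshold and leaving out each array.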

Additional observations from a re-analysis of the deposited data

Results flagged for a closer look

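The probe set of the microRNA gene Mir5112 had a genotype difference that changed between the conditions: the DKO minus WT difference without Iso was higher than that with Iso by 4.52 on the log2 scale (SE 0.33, adjusted p = 7.87e-05, limma with Benjamini-Hochberg adjustment over 13737 genes). It was 1.50 without Iso, where 3 of 3 DKO arrays were above all WT arrays, and -3.02 with Iso, where 3 of 3 were below. Groups of 3 arrays were too small to look for single outlying values.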

How the results depend on the processing

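The 28 genes that passed without Iso (14 rose, 14 fell) became 18 with no filter on dim probe sets (8 rose), 698 with array weights (350 rose, 348 fell), 2 when only the untreated arrays were fitted (0 rose, 2 fell), 2 against a log2 threshold of 0.5 (0 rose, 2 fell; 101 at an unadjusted p under 0.05 against that threshold), and 73 without untreated DKO replicate 3 and Iso WT replicate 3 together (33 rose, 40 fell), a setting added after the data were seen. Leaving out 1 array gave 7 to 180 (2 to 94 that rose, 5 to 86 that fell). With only the untreated arrays, 1258 genes had an unadjusted p under 0.05. The 46 that passed without DKO replicate 3 became 7 against the threshold (3 rose, 4 fell) and 73 without Iso WT replicate 3 also (40 fell), with 15 rises under no filter and 14 with only the untreated arrays; leaving out a further array gave 21 to 73 (10 to 33 rose, 11 to 40 fell). The 42 with Iso became 164 with array weights, 9 against the threshold, 101 without both arrays and 10 to 163 with 1 array left out. The 2 of the test of change became 51 with array weights, 6 with the replicate block, 7 without both arrays, 0 without small non-coding RNA genes (1358 at an unadjusted p under 0.05) and 2 to 16 with 1 array left out. The causes were not tested. The other settings, cyclic loess among them, gave counts within 1.5 times of these.

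Of the 24 named genes that passed, none changed direction, and Rps3a2 and Esd passed in all 28 settings. Myh7 (-0.97, adjusted p = 0.0130), Nr4a1 (-0.61, 0.0197) and Il6 (-0.70, 0.0312) did not pass with all arrays weighted equally and passed with array weights. Among genes that did not pass, the sign turned with array weights for Camk2a (-0.29), Slc8a1 (0.27), Fos (-0.15) and the Y-linked gene Uty (0.013), and without both arrays for Camk2a (-0.20), Slc8a1 (0.42), Cacna1c (-0.036), Fos (-0.19) and Uty (0.11). With 1 array left out, differences ran from -0.20 to 0.22 for Camk2a, -0.093 to 0.019 for Nppb, -0.015 to 0.17 for Pln, -0.36 to 0.42 for Slc8a1, -0.036 to 0.17 for Cacna1c, -0.19 to 0.13 for Fos and -0.47 to 0.11 for Uty.

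Arrays of DKO and WT with the same replicate number came from different mice, so the number does not pair them by mouse. Their deviations from the group means correlated at -0.05, -0.03 and 0.02, and those of unlike numbers at -0.03 to 0.06. With 3 arrays per group, such values cannot show whether equal numbers shared a day of isolation or culture. With the number as a replicate block 32 genes passed (14 rose, 18 fell), 26 of them among the 28. Adgrg1 and Zfp719 lost their calls there. With the mouse as a random block 28 passed.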

Other observations

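The 3 arrays per group, the one that stood apart among them, and the lack of a read on the Camk2d deletion bound what this comparison shows. Differences between the genotypes include whatever the strains, litters or cultures of the 6 mice did not share, which cannot be told apart from the knockout. Across all 13737 genes, the differences without Iso and with Iso, which share mice but no array, correlated at 0.0517, and at 0.216 when DKO replicate 3 was left out; genes are not independent replicates, so this is a description only.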
